A study of Mus musculus with 8 samples.

Results

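B-lineage genes were examined in mouse DN3 thymocytes, T-cell precursors at the stage where the pre-T-cell receptor is selected. The 9 genes were Pax5, Ebf1, Cd79a, Cd79b, Blnk, Vpreb1, Igll1, Ms4a1 and Cd22. The regions studied are the ATAC-seq peaks that overlap each gene body extended by 25 kb on both sides. ATAC-seq marks open chromatin by letting a transposase insert sequencing adapters into accessible DNA. Merging the 4 deposited DN3 peak lists gave 180321 consensus regions, of which 123 lay in the windows of these genes.

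The DN3 libraries came from C57BL/6 mice, 2 of them wild type at N-Me, the distal Myc enhancer that responds to Notch, and 2 carrying homozygous mutations of its GATA sites 1 and 2. All 4 libraries were of DN3 thymocytes, and no other allele, treatment or age is given in the labels. The labels do not say whether the 2 libraries of a genotype came from separate animals, so p-values measure only the spread between these libraries. The 4 leukaemia samples of the series were not analysed here. The lists held 169255 and 156372 peaks in wild type 1 and 2, and 121022 and 119023 in mutant 1 and 2. Read depth is unknown, and a missing peak may reflect the depth of the list. Defining markers of the labelled cell type were open: 14 of 14 DN3 T-precursor genes, among them Ptcra, Cd3e, Rag1 and Il2ra, were called in all 4 libraries at a distance of at most 1 kb from an annotated start. By the same rule 66.8% of all protein-coding genes were called, and this difference was not tested.

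B-cell identity is set by a cascade of transcription factors in which EBF1 and PAX5 act together and switch on the parts of the B-cell antigen receptor. The precursor form of that receptor pairs an immunoglobulin heavy chain with a surrogate light chain made of VPREB1 and IGLL1, and signals through CD79A, CD79B and the adaptor BLNK. Notch signalling in the thymus directs progenitors to the T lineage, away from the B lineage that these genes mark.

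Promoter sequences show what lay under the peaks at the starts of these genes, and what lay where no peak was found. RefSeq promoter sequences (GRCm38.p6, 250 bases before to 50 after the annotated start) were matched for 7 of the 9 genes, with 8 starts in all. The first 3 below carried a peak in every library and the last 2 carried none. They lie at chr19:40994172-40994471 (Blnk, minus strand), chr7:24897247-24897546 (Cd79a, plus strand), chr16:16863936-16864235 (Igll1, minus strand), chr16:16869206-16869505 (Vpreb1, minus strand) and chr7:30878979-30879278 (Cd22, minus strand). Capitals mark the letters of 6 motifs, each searched on both strands. The core of sites for ETS factors was searched as GGAA. The E-box, bound by E proteins, was searched as CANNTG. The site of GATA factors was searched by the letters of that name. For RUNX factors, which act throughout blood development, the letters were TGTGGT. For TCF factors, which act in T precursors, they were CTTTGA. The EBF motif was searched as its palindromic consensus, in which 2 bases at the centre may be any. Only exact matches were counted, so EBF sites that depart from that consensus would be missed.
Blnk: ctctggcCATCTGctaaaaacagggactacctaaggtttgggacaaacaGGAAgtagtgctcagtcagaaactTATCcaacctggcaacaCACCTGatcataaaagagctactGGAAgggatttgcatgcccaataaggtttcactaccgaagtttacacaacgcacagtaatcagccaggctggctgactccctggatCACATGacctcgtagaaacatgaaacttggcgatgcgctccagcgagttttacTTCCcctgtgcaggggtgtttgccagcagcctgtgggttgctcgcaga
Cd79a: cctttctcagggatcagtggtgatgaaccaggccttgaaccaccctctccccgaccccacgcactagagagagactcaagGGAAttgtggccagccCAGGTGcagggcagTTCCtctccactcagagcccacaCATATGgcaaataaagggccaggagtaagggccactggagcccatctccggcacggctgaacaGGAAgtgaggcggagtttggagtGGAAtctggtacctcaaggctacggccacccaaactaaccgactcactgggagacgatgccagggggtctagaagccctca
Igll1: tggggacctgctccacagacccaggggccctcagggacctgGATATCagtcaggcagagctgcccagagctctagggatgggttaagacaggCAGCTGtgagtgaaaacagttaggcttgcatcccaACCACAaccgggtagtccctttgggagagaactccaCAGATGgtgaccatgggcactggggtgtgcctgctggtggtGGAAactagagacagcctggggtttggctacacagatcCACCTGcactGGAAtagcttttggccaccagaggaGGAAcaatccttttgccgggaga
Vpreb1: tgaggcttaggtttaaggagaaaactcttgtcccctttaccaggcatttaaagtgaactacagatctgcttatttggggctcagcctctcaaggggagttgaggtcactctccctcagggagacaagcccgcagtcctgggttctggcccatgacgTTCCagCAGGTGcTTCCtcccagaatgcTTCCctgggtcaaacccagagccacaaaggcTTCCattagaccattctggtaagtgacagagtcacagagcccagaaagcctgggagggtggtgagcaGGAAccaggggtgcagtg
Cd22: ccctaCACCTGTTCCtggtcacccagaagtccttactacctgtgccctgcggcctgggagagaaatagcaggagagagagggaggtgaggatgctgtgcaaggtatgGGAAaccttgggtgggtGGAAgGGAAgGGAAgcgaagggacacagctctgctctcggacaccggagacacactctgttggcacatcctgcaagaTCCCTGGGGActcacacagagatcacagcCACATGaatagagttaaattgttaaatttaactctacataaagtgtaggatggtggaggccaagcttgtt

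EBF letters occurred in 0.904% of the 32851 promoters of the table and in 1 of the 8 shown or searched here, that of Cd22. They stood there from base -49 to base -40 before the start, as TCCCTGGGGA, in a promoter that no peak touched in any library. ETS letters occurred in 8 of the 8 promoters and in 96% of all promoters, so their presence is ordinary. E-box letters occurred in 7 of the 8 and in 72.3% of all. In the Igll1 promoter the 2 GATA matches overlap each other on opposite strands, and GATA letters occur in 57.9% of all promoters. Those of RUNX and TCF occur in 16.8% and 16% of all promoters. These matches are letters only and say nothing of a bound factor.

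Open chromatin was found at 6 of the 9 gene starts, taken as a peak no farther than 1 kb away, in all 4 libraries. These were those of Ebf1, Pax5, Cd79a, Cd79b, Blnk and Igll1, and the other 3, Vpreb1, Cd22 and Ms4a1, had none in any library. Over all 21883 protein-coding genes, 66.8% had a start called in all 4 libraries, so the count of these genes is near the background. By library the background was 71% in wild type 1, 70.2% in wild type 2, 67.5% in mutant 1 and 67.9% in mutant 2. For Cd79b and Ms4a1 either annotated end of the gene stood for the start. For Cd22 the start was that of its promoter sequence alone. A region called in all 4 libraries spanned the upstream end of the Cd22 annotation, so the lack of a call there depends on that choice of start. In bulk libraries, a site open in few cells and one weakly open in all cells cannot be told apart.

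By −log10 q most of the called starts were weak ones, while by fold they stood near the DN3 T-precursor starts. Median fold of the called start peaks was 4.12, 3.83, 2.80 and 2.94 in wild type 1, wild type 2, mutant 1 and mutant 2. For the DN3 T-precursor genes it was 4.01, 3.76, 2.86 and 3.05, and this difference was not tested. Ranked within its own library by −log10 q, the strongest start peak of a protein-coding gene had a median percentile of 93.2 to 94.1 and a lower quartile of 81.2 to 81.7. Of the called members only Ebf1 lay above that lower quartile in all 4 libraries, at percentile 96.4, 93.8, 87.4 and 90 in wild type 1, wild type 2, mutant 1 and mutant 2. That Ebf1 peak lay 705, 685, 633 and 690 bp from the start. The Ebf1 region nearest to the start stood below the lower quartile, at percentile 80.9, 77.7, 66.4 and 66.8. Pax5 lay at percentile 28.5, 51.3, 19.7 and 17.1 in the same order, and Cd79a at 49.2, 52.1, 26.4 and 19. With peaks of −log10 q of 5 or more, 5 and 6 of the 9 starts were called in wild type 1 and 2, and 3 in each mutant library. The background at that threshold was 67.7%, 66.6%, 64.6% and 64.9%. The starts kept in both mutant libraries at that threshold were those of Ebf1, Cd79b and Blnk.

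**Figure D1:**
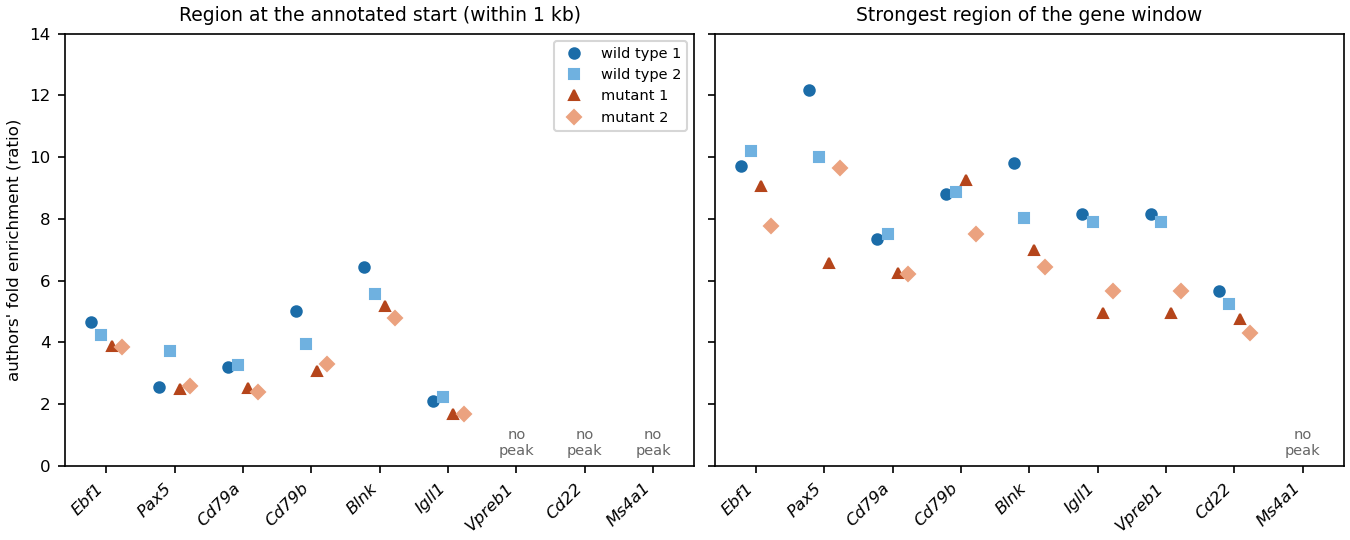
Fold enrichment over local background, as the authors' caller gave it (ratio, y axis), of the region nearest to each gene's start (left) and of the strongest region of its window, the one whose lowest fold over the libraries was highest (right), 1 point per library. These nearest start regions lie between 1.67 and 6.44, and are lacking for Vpreb1, Cd22 and Ms4a1. Other regions within 1 kb of the Ebf1, Cd79a and Igll1 starts are not drawn on the left. That of Igll1 reached within 1 kb in wild type 2 only. Strongest regions reach 12.2 at Pax5, and Ms4a1 has no region at all.

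Ebf1, which specifies the B lineage, lies on the plus strand of chromosome 11 (44618100 to 45008096, GRCm38) and has the longest gene of the set, 390 kb. Its window held 41 regions, 20 of them called in all 4 libraries. The region nearest to its first start began 133 bp downstream and had fold 4.66 and 4.24 in wild type 1 and 2, and 3.88 and 3.87 in mutant 1 and 2. A stronger region lay 633 bp upstream of the same start, with fold 9.03 and 6.69 in wild type and 5.86 and 6.40 in mutant. The promoter at 44618100 itself was not covered by a peak in any library. That at the second start, 44620228, had 52 covered bases in wild type 2 and none in the other libraries. The fold is the authors' ratio of a peak to its local background and belongs to its own list, and it is given to describe peaks within a list, not to compare genotypes.

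Open sites of Ebf1 lay around its start and in the far part of the gene, with fewer between. From 25 kb before to 10 kb after the start there were 10 regions, 5 of them in all 4 libraries, and 2 of those had fold of 4 or more in every library. Measured from the nearer of its annotated starts (44618100 and 44620228), the stretch from 250 to 340 kb downstream held 15 regions, 8 of them in all 4 libraries, and 5 of those had fold of 4 or more in every library. The stretch from 10 to 100 kb, of the same length, held 8 regions, 4 in all 4 libraries and none with fold of 4 or more in every library. The highest fold of the whole set of windows stood in the far stretch, in a 729 bp region 328.9 kb downstream, with 14.1 and 8.004 in wild type 1 and 2 and 5.85 and 6.81 in mutant 1 and 2. Wild type 1 was high at that region and the other 3 libraries lay closer together. The strongest region of the Ebf1 window, by its lowest fold over the libraries, lay at the very end of the gene (chromosome 11, 45007917 to 45008541), with 9.73 and 10.2 in wild type and 9.08 and 7.78 in mutant.

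Pax5, which commits cells to the B lineage, lies on the minus strand of chromosome 4 (44524748 to 44710694) and held 19 regions, 12 in all 4 libraries. Its start region began 70 bp upstream and was weak, with fold 2.56 and 3.71 in wild type 1 and 2 and 2.49 and 2.57 in mutant 1 and 2. Wild type 2 alone stood apart there. The strongest region lay inside the gene, 145.7 kb downstream of the start (44564569 to 44565018, 450 bp), with fold 12.2 and 10.01 in wild type and 6.58 and 9.64 in mutant. The region with the highest −log10 q of the window, 1513 bp wide and 5.9 kb downstream of the start, overlapped the long non-coding RNA gene 5730488B01Rik and had fold 6.34, 6.18, 6.04 and 6.60 in the 4 libraries. Its −log10 q was 136, 97.6, 133 and 131 in the same order, with the genotypes overlapping. Between 50 and 130 kb downstream the gene held 2 regions, each called in 1 wild-type library.

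**Figure D2:**
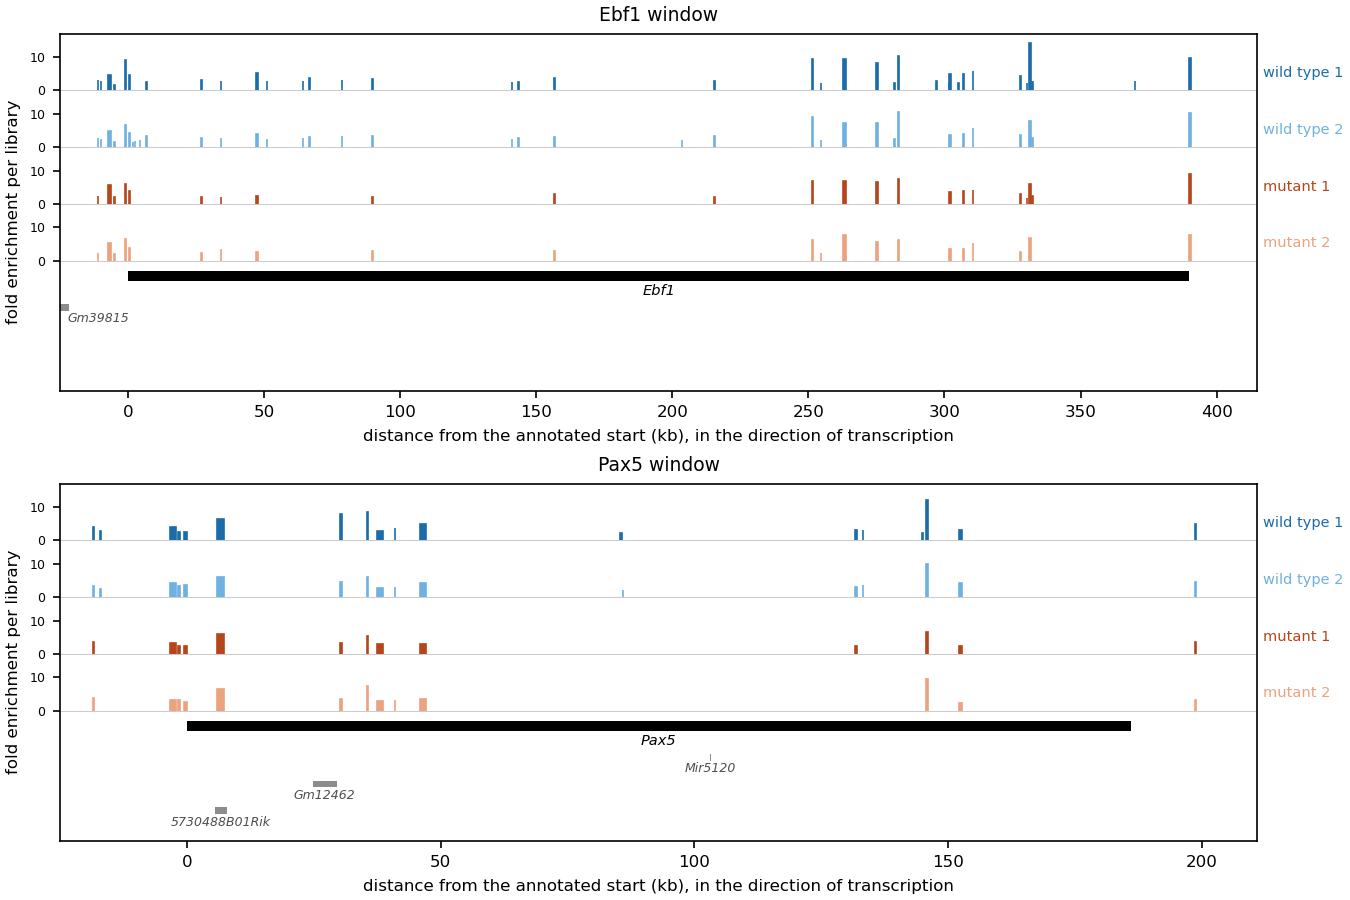
Consensus regions of the Ebf1 and Pax5 windows by distance from the annotated start (kb, x axis; for Ebf1 the first start), with bar height the highest fold enrichment of a peak in that region in each library (ratio, 1 row per library). Black bars are the genes and grey bars other annotated genes; narrow regions are drawn at a minimum line width. Measured from the nearer of its annotated starts, the far stretch of Ebf1, from 250 to 340 kb, holds 8 regions called in all 4 libraries. The strongest Pax5 region stands 145.7 kb from its start.

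Cd79a encodes a signalling chain of the B-cell antigen receptor and lies on chromosome 7 (24897497 to 24901858, plus strand). Its start region spanned the start (24897201 to 24897563), with fold 3.22 and 3.27 in wild type 1 and 2 and 2.52 and 2.41 in mutant 1 and 2. Of the 300 bases of its promoter, peaks covered 300 and 294 in wild type and 181 and 140 in mutant. It was the only region that touched the gene, and the peaks of the mutant libraries ended 70 and 65 bp before the start. The other 12 regions of its window lay outside the gene, and the strongest lay at an end of Rps19, which encodes a ribosomal protein (24883734 to 24885238, fold 7.36 and 7.50 in wild type, 6.24 and 6.22 in mutant).

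Cd79b, the partner chain, lies on chromosome 11 (106311341 to 106314562) and had 13 regions, 8 in all 4 libraries. A region of 1384 bp covered one annotated end and part of the gene, with fold 5.02 and 3.96 in wild type 1 and 2 and 3.09 and 3.30 in mutant 1 and 2. In the wild-type lists this region was a pair of separate peaks, and in the mutant lists it was 1 continuous peak of 1384 and 1373 bp. The strongest region of the window overlapped Gh, the growth hormone gene (106302549 to 106303114), with fold 8.81, 8.87, 9.27 and 7.52 in the 4 libraries, where the genotypes overlap.

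Blnk, the adaptor that links the receptor to downstream kinases, lies on the minus strand of chromosome 19 (40928927 to 40994221). Its start region had fold 6.44 and 5.58 in wild type 1 and 2 and 5.19 and 4.79 in mutant 1 and 2, and peaks covered all 300 bases of the promoter printed above in every library. The strongest region of the window lay inside the gene, 30.5 kb downstream (40962778 to 40963736), with fold 9.83 and 8.02 in wild type and 7.004 and 6.45 in mutant. Blnk had 13 regions, 7 of them in all 4 libraries.

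By the fold of the region nearest to the start alone, Blnk came first, followed by Ebf1, Cd79b, Cd79a, Pax5 and Igll1. For these nearest regions Blnk and Ebf1 did not overlap over the 4 libraries, with 4.79 as the lowest value of Blnk and 4.66 as the highest of Ebf1. The order depends on that choice, since the other Ebf1 region, 633 bp from the start, had a higher fold than the Blnk start region in every library. The neighbours Ebf1 and Cd79b, Cd79b and Cd79a, and Cd79a and Pax5 overlapped. The nearest region of Igll1 stood below that of Pax5, with a highest value of 2.23 against a lowest of 2.49. But Igll1 also had a stronger region upstream, described next, whose edge lay 957 bp from the start. Only the wild type 2 peak of that region reached within 1 kb of the start.

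Igll1 and Vpreb1, the parts of the surrogate light chain, lie side by side on the minus strand of chromosome 16 (Igll1 16860671 to 16863985, Vpreb1 16868401 to 16869255) and their windows share all 7 regions. No peak touched either gene body in any library. The Igll1 start had a weak region 33 bp upstream (16864018 to 16864372), with fold 2.09 and 2.23 in wild type 1 and 2 and 1.7 and 1.67 in mutant 1 and 2. Peaks covered 213, 218, 161 and 174 of the 300 promoter bases. The space between the genes held a wider region (16864942 to 16866390, 1449 bp) called in every library, with fold 4.30 and 3.49 in wild type and 3.12 and 3.54 in mutant, where the genotypes overlap.

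The Vpreb1 promoter, printed above beside that of Igll1, was not covered by a peak in any library. The nearest peaks lay 1360, 1363, 1218 and 1312 bp from its start and belonged to the region at an end of Top3b, a topoisomerase gene (16870473 to 16871669). That region had fold 8.16 and 7.90 in wild type and 4.96 and 5.67 in mutant and was the strongest of both windows. Of the 7 regions, 6 were called in all 4 libraries, and the other was called in wild type 1 only.

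Cd22, an inhibitory co-receptor of B cells, lies on the minus strand of chromosome 7 (30865404 to 30880342), and its annotated start in the sequence table is at 30879028. No peak lay within 1 kb of that start, and the nearest lay 1236, 1163, 1238 and 1222 bp away in wild type 1, wild type 2, mutant 1 and mutant 2. These peaks form a region of 262 bp (30880191 to 30880452) that spans 30880342, the upstream end of the gene annotation on the minus strand. Its fold was 3.38 and 4.04 in wild type and 3.25 and 3.17 in mutant. The other region inside the gene (30873016 to 30873555) had fold 4.63, 4.91, 4.56 and 4.001 in the 4 libraries. The window held 17 regions, 10 in all 4 libraries, and the strongest lay within 1 kb of an end of Ffar1, a fatty acid receptor gene (30859203 to 30860415, fold 5.68, 5.23, 4.77 and 4.29).

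Ms4a1, which encodes the B-cell surface protein CD20, lies on chromosome 19 (11249679 to 11266149) and had no region in its 66.5 kb window in any library. The nearest peak lay outside the window, 26.7 to 26.9 kb from the closer end of the gene, and had fold 8.65 to 10.3. Of all protein-coding genes, 12% had no region in such a window.

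**Figure D3:**
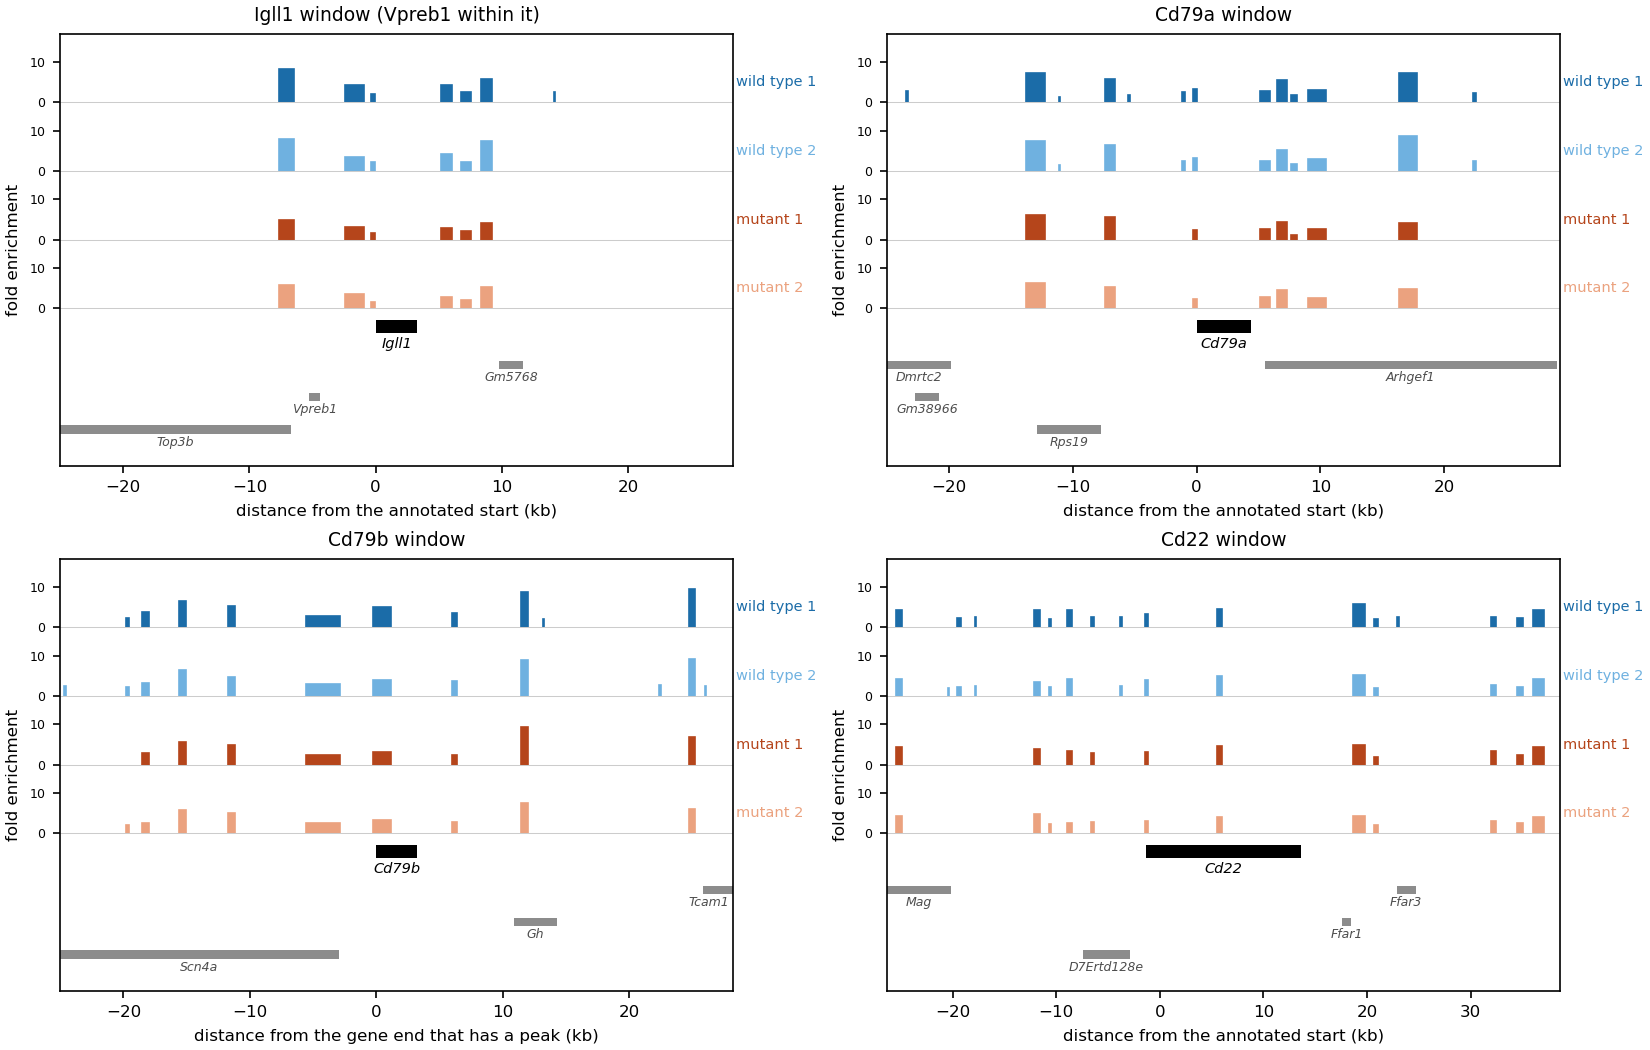
Consensus regions of the Igll1, Cd79a, Cd79b and Cd22 windows by distance from the start, or for Cd79b from the gene end that has a peak (kb, x axis), in the direction of transcription where the strand is known. Bar height is the highest fold enrichment of a peak in that region in each library (ratio); black bars are the genes and grey bars their annotated neighbours. The bodies of Igll1 and Vpreb1 hold no region, Cd79a holds only the region at its start, and the tallest bars of the Cd79a, Cd79b and Igll1 windows stand outside those genes.

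The share of the window covered by peaks, as a mean over the 4 libraries, was 12.6% for Cd79a and 12.2% for Cd79b, at the 88.8 and 87.7 percentile of all protein-coding genes. It was 2.80% for Pax5 and 2.14% for Ebf1, at the 32.3 and 28.2 percentile, and the median over all genes was 5.32%. Inside the gene itself, peaks covered 67 and 44 bp of Cd79a in wild type and none in mutant, against 7314, 6807, 6857 and 6232 bp of its flanks in the 4 libraries, which are far longer than the gene. Cd79b differed, with 21.9%, 25.02%, 35.1% and 34.9% of the gene covered in the 4 libraries, against 11.1%, 11.7%, 11.4% and 10.3% of its flanks. Cd22 at 8.75%, Vpreb1 at 8.23%, Igll1 at 7.85% and Blnk at 4.47% lay between. Over the 9 genes the median was 7.85%, against 17.3% over the 14 DN3 T-precursor genes, whose windows were scored in the same way; this difference was not tested.

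**Figure D4:**
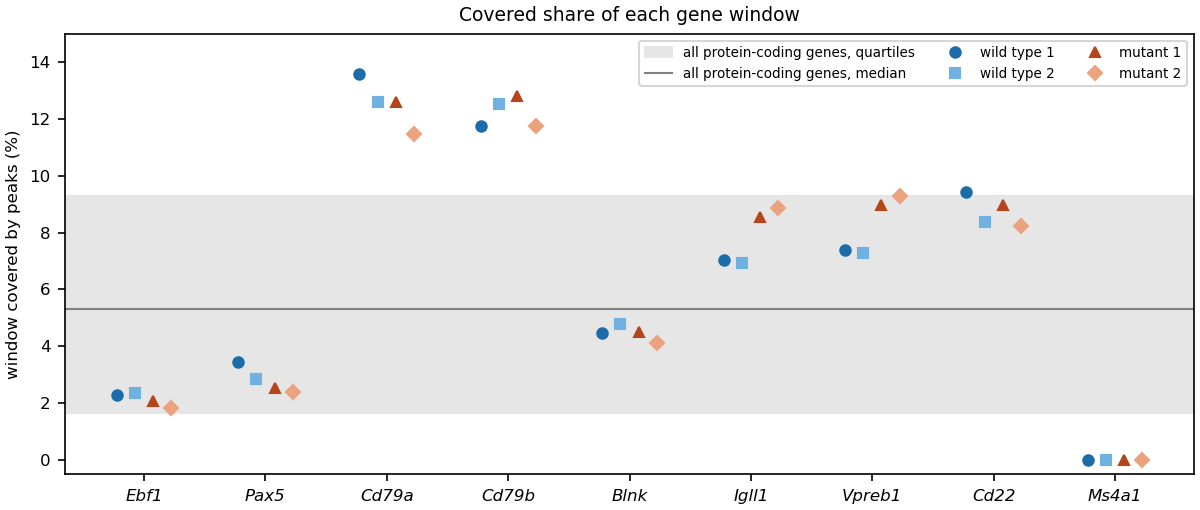
Share of each gene window covered by peaks (percent, y axis), 1 point per library, beside the median and the quartiles of the mean share over all protein-coding genes. Cd79a and Cd79b lie above the upper quartile of 9.28%, Ebf1, Pax5 and Blnk below the median of 5.32%, and Ms4a1 at 0.

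The study compared DN3 cells with an intact enhancer and with mutated GATA sites. In the windows of the B-lineage genes, 112 and 106 regions were called in wild type 1 and 2, and 79 and 75 in mutant 1 and 2. The means were 109 ± 4.24 and 77 ± 2.83 (SD, n = 2 each), which do not overlap, and the exact two-sided permutation p of 0.333 is the smallest that 2 against 2 libraries can give. The lists as a whole also held more regions in wild type, 160226 and 147788 against 118936 and 117371 in mutant. The covered length was 46.9 and 45.3 kb in wild type and 44.4 and 41.0 kb in mutant (46.1 ± 1.12 against 42.7 ± 2.40 kb, SD, n = 2 each, exact permutation p = 0.333). Over the whole lists, peaks covered 72.1 and 70.8 Mb in wild type and 72.3 and 69.3 Mb in mutant. In the gene windows the direction turned when every list was reduced to equal numbers of peaks. The covered length there was then 41.0 kb in wild type and 42.7 kb in mutant.

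Both wild-type libraries called 97 regions, of which 19 had no peak in either mutant library. This is 19.6% (95% exact binomial interval 12.2 to 28.9, counting error only), and the background over all regions was 15%, inside that interval. Reduced to equal numbers of peaks, the share was 8.11%, with 6 of 74 regions, and that over all regions 4.92%. Both mutant libraries called 71 regions, of which 0 lacked a wild-type peak, which allows a share of up to 4.23% (3 counts of the total; the exact binomial interval reaches 5.06%), and the background was 1.75%. Both shares were near those of the whole lists.

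Ebf1 held 9 of the 19 regions called only in wild type, among 32 that both wild-type libraries called there (28.1%, interval 13.7 to 46.7). The share over all regions, 15%, lay inside that interval, and Ebf1 held 32 of the 97 member regions called in both wild-type libraries. That count of 9 fell to 4 with peaks of −log10 q of 5 or more, to 1 with fold of 4 or more and to 4 with equal numbers of peaks. Shares over all regions at those settings were 10.3%, 19.7% and 4.92%, and those of Ebf1 were not computed. The strongest of the 9 lay 76.4 kb downstream (44696668 to 44696838, fold 3.23 and 3.4). Cd79a and Cd22 held 3 each, Pax5 and Blnk 2 each, and Cd79b, Igll1 and Vpreb1 none. At Cd79a the strongest region of this kind was one of 251 bp, 944 bp upstream of the start (24896303 to 24896553), with fold 2.68 and 2.49. At Pax5 it was a 111 bp region inside the gene (44577437 to 44577547, fold 3.12 and 3.77). Blnk had one of 372 bp inside the gene (40970347 to 40970718, fold 2.68 and 2.84), and Cd22 one of 95 bp in its flank (30896774 to 30896868, fold 2.55 and 2.60).

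These regions were narrow and weak. Their median width was 166 bp, from 95 to 379 bp, against 565 bp for the 70 member regions called in all 4 libraries. Over all regions the medians of the same classes were 176 and 608 bp. None of the 19 was narrower than 87 bp, the shortest peak of mutant 2, and the highest lower fold among them was 3.23. When the longest minimum length and joining gap of the 4 lists were applied to each, 17 of 90 regions (18.9%) lacked a mutant peak, and 12.1% of all regions did.

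**Figure D5:**
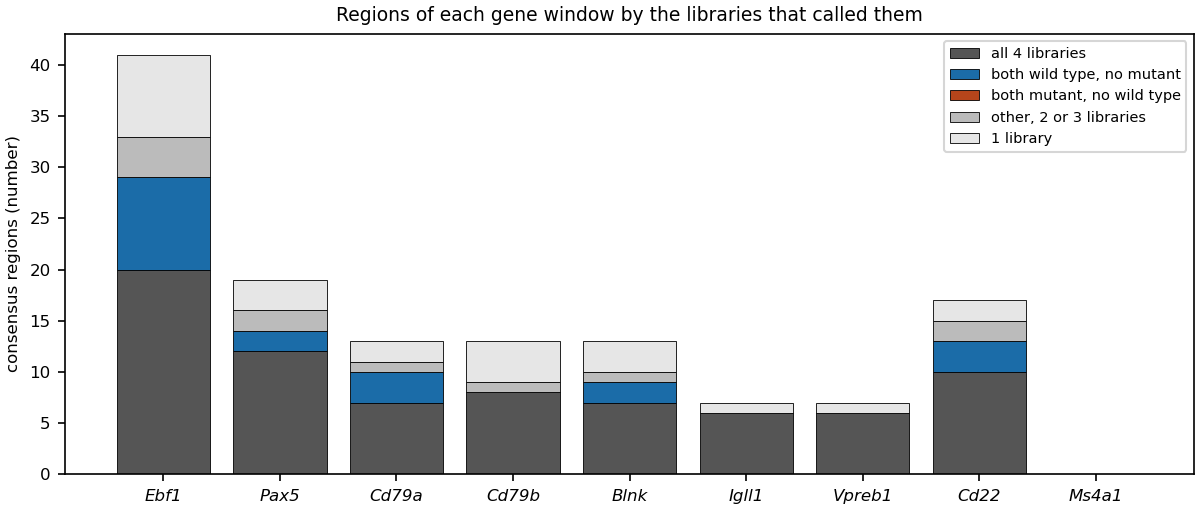
Number of consensus regions in each gene window (y axis), split by the libraries that called them; the windows of Igll1 and Vpreb1 share their 7 regions. Of the 123 regions, 70 were called in all 4 libraries, 19 only in wild type (both libraries) and 0 only in mutant. Ebf1 holds 9 of the 19, and 32 of the 97 called in both wild-type libraries.

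Other genes of the B-lineage programme were scored at their starts in the same way. Of 12 further factors, 11 had a start called in all 4 libraries, among them Spi1, Ikzf1, Tcf3, Irf4, Irf8 and Bcl11a, of which several also act in other blood lineages. Bach2 had no start called in any library, while its window held 79 regions. Of 13 receptor and signalling genes, 10 had a start called in all 4 libraries, among them the kinases Btk, Syk, Lyn and Blk, and Il7r, which T precursors use as well. The Btk start peaks were weak, with fold 1.62 to 2.02 and −log10 q of 2.12 to 6.19. Vpreb3 and Ciita, the regulator of MHC class II genes, had none in any library. Fcrla was called in the wild-type libraries only. These counts stand beside the same background of 66.8% and were not tested against it.

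Whether a few B cells were present in the sorted cells was not tested. The B-cell markers used are the 9 genes above, of which 6 had a start called in every library and Ms4a1, Vpreb1 and Cd22 in none.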

How the data were processed

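ATAC-seq peak lists of 4 DN3 libraries were used, 1 list per library, not pooled. The submitters' processing notes name MACS2 2.1.1, SAMtools 1.7, Bowtie2 2.3.3.1 and cutadapt 1.16, and mm10 (GRCm38). Caller settings and read shifting were not given in the sources used here. Fold enrichment, as deposited, is the ratio of pileup to local background in a peak. The deposited −log10 p and −log10 q describe a peak within its own list, and the deposited score is −log10 q times 10, truncated. The lowest −log10 q was 1 to 1.02. Lists without read counts give no depth, so no count model was fitted and intervals cover counting error only.

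Peaks of autosomes 1 to 19 and the sex chromosomes were merged into consensus regions, each called in a library with at least 1 bp of peak there. Genes and starts came from RefSeq tables (GRCm38.p6), with starts for 17491 of 21883 protein-coding genes and either gene end for the others. Libraries were compared with exact two-sided permutation tests. The region at a start was the one called in most libraries, then the nearest. All 9 genes, their start region, their strongest region by lowest fold and their strongest region called in 1 genotype only are named. The genes, lists and tests were chosen with earlier results of these data known. One listed gene is not reported here. The code was tested on simulated lists. Alternatives were thresholds, equal numbers of peaks, common joining, 50% cover, other windows and start distances, leaving out regions at other genes, each library left out, and pairing by replicate number. Python 3.11.15, numpy 2.4.6, pandas 2.3.3, scipy 1.17.1 and matplotlib 3.10.9 were used.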

Additional observations from a re-analysis of the deposited data

How the results depend on the processing

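The excess of regions called in wild type, 32 more than in mutant on average, kept its direction under all alternatives run, at 3.5 with equal numbers of peaks and 30 to 35 with 1 library left out. The covered length was 3.35 kb greater in wild type and 1.66 to 5.05 kb greater with 1 library left out, and turned to -1.70 kb (41.0 against 42.7 kb) with equal numbers of peaks. The number of starts called, the same in both genotypes, moved to a difference of 2.50 genes with −log10 q of 5 or more, 0.50 with fold of 4 or more and -0.50 with equal numbers of peaks, and stayed at 0 with any 1 library left out. Regions called only in wild type made up 8.11% with equal numbers of peaks (4.92% of all regions) and 23.5% to 27.4% with 1 library left out (19.3% to 25.4% of all). Those called only in mutant made up 5.63% (6.99% of all) and 0% to 2.53% (2.56% to 4.11% of all); fewer libraries raise such shares by construction. Paired by replicate number (the replicate block), the difference stayed 32 regions and 3.35 kb, with an exact sign-flip p of 0.50, the smallest that 2 pairs can give, and 0 starts (p = 1). The labels give only a number, and same-numbered libraries were no more alike (Jaccard index 0.675 and 0.704) than others (0.671 and 0.708). Over single genes and settings, 37 counts moved and 80 did not. Start calls within 2 kb reached 8 of 9 genes in every library, but the share over all genes at that distance was not computed. The genes added were Cd22 and Vpreb1, the latter by the region at an end of Top3b. The unknown depth limits what an uncalled region shows.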

Other observations

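Genes of other lineages were scored at their starts in the same way, beside 66.8% of all protein-coding genes called in all 4 libraries; no difference from that share was tested. Of 9 myeloid markers, 5 had a start called in all 4 libraries, Spi1, Itgam, Cebpa, Lyz2 and Csf3r, Elane, a neutrophil protease gene, in none, and Fcgr3 in wild type 1 and mutant 2. Csf1r, a macrophage growth factor receptor gene, and Mpo, the myeloperoxidase gene, were called in the wild-type libraries only, by weak peaks with −log10 q of 1.6 to 2.56. The Csf3r peaks were weak too, with −log10 q of 1.47 to 3.09, and those of Fcgr3 had 1.93 and 3.41. With −log10 q of 5 or more, 4 of the myeloid starts were called in each library. Of 7 erythroid markers, 3 were called in all 4 libraries, Gata1, Hba-a1 and Ermap in none, and Slc4a1 in the wild-type libraries only, with −log10 q of 1.59 and 2.94. Of 6 NK markers, 5 were called in all 4 libraries, and Ncr1, an NK receptor gene, in none.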
